A study of Sus scrofa with 22 samples.

Results

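Hypoblast_E9 is the group of cells that the authors' tables of pig embryos place in the hypoblast at embryonic day 9 (E9). It held 57 of the 1647 cells of the series, and all 57 came from 1 library, P17. The cells were found by fitting the deposited mean profile of Hypoblast_E9 on the log2 values of all cells by least squares. The 57 cells had weights of 0.0159 to 0.0201, the threshold was 0.0101, and the highest weight of any other cell was 0.00297. With these cells, 99.89% of the deposited means and standard deviations were matched to within 0.001.

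The series profiled polyadenylated RNA cell by cell, with a modified Smart-seq2 method, cell barcodes and spike-in RNA, in embryos of E0 to E14 and in stem cell lines from E10 epiblast. Hypoblast_E9 was set beside Hypoblast_E8 (129 cells of libraries P3, P4 and P5), Hypoblast_E10 (90 cells of P5, P6 and P16), Hypoblast_E7 (73 cells of P8 and P9) and Epiblast_E9 (7 cells of P17). All of these are cells of pig pre-implantation embryos; no treatment, strain, sex or number of embryos is given in the sources used here, and the day of a cell is known only from the authors' group names. Since E9 hypoblast comes from a single library, the comparisons have no replicate check, the day and the library cannot be told apart, and no test was made.

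The hypoblast, or primitive endoderm, is the epithelium that forms under the epiblast in the blastocyst. It lines the blastocyst cavity, gives rise to the endoderm of the yolk sac, lays down a basement membrane and sends BMP, WNT and NODAL antagonist signals to the neighbouring epiblast and trophectoderm. GATA and SOX17 transcription factors hold its identity, and FGF and PDGF receptors are known in the mouse for its specification and survival.

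The 57 cells had 51679 to 1186062 counts each, with a median of 445531, and a median of 9688 detected genes. Their median depth was above the medians of the E7 libraries (344334 and 248647 counts) and the E8 libraries (202872 to 287694.5), and within the range of the E10 libraries (289956 to 465361). Median spike-in and mitochondrial shares were 1.98% and 2.18%. All 57 barcodes were also used in at least 1 other library, and no doublet caller was run. Pooled over cells, the group had 26126083 counts, and levels below are CPM of such pools, the counts of a gene per 1e6 counts of pig genes. Intervals are exact Poisson intervals at 95% and cover counting error only. CPM are not per gene length, so they are compared across cells and days, not between genes.

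EIF1AY, a translation initiation factor gene on the Y chromosome, fell into separate ranges among the 57 cells. It lay between 32.45 and 184.7 CPM in 27 cells, and between 0 and 21.66 CPM in the other 30. At least 3 counts of ZFY, another Y-linked gene, were found in 22 of the 27 cells and in 2 of the 30. The threshold of 30 CPM was chosen after these values were seen, and reads of the X-linked copy EIF1AX could be shared with EIF1AY. The 27 cells were deeper, with a median of 600211 counts against 302697 in the 30 cells, and had a lower median mitochondrial share, 1.42% against 2.76%. Cells at 30 CPM or more made up 14 of 38 and 5 of 35 cells of the E7 libraries P8 and P9, 0 of 24, 1 of 66 and 1 of 39 of the E8 libraries P3, P4 and P5, and 19 of 22, 31 of 33 and 11 of 35 of the E10 libraries P5, P6 and P16. These shares differed between days and also between libraries of the same day at E7 and E10, and their part in the comparisons below was not tested. Results are therefore also given in each set of E9 cells where it matters, as the EIF1AY-high and EIF1AY-low cells.

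**Figure D1:**
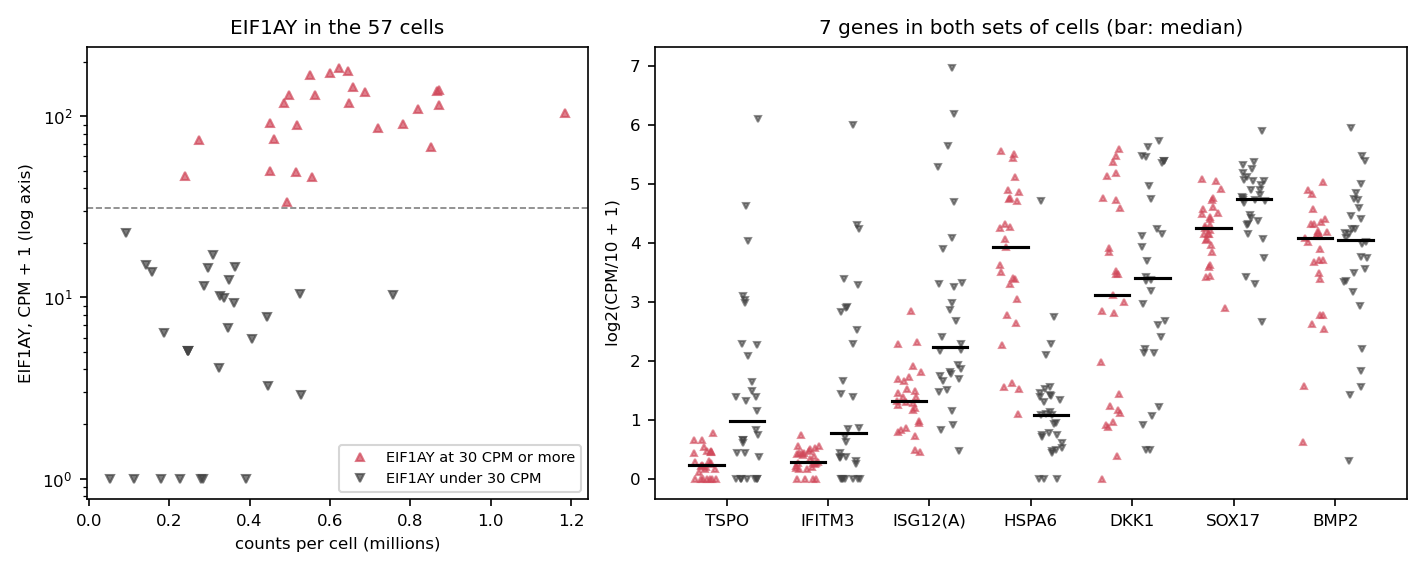
Left, EIF1AY (CPM + 1, log axis) against counts per cell in the 57 E9 hypoblast cells, with a dashed line at 30 CPM. Right, log2(CPM/10 + 1) of 7 genes in the 27 EIF1AY-high cells (red triangles up) and the 30 EIF1AY-low cells (grey triangles down), with medians as bars. HSPA6 was higher in the EIF1AY-high cells, TSPO, IFITM3 and ISG12(A) had their highest cells among the EIF1AY-low cells, and DKK1, SOX17 and BMP2 overlapped between the sets.

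The cells carried the markers that name them. APOA1, which encodes the main protein of high-density lipoprotein, was the gene with the most counts, 0.270% of all. It had 2699 CPM in the pool (2679 to 2719), with 1440, 2682 and 6463 CPM in the lowest, the median and the highest cell. SOX17, an endoderm transcription factor gene, had 53.01, 211.7 and 584.7 CPM in the lowest, median and highest cell. GATA4, a transcription factor gene of the same programme, had 102.1, 243.5 and 407.5 CPM. All 3 were above 0 in every cell. BMP2, a secreted signal gene, was also found in each cell but over a wider span, 2.258 to 606.4 CPM with a median of 158.6.

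Most markers of other lineages were low, and the exceptions were some epiblast genes and LYZ and PECAM1 among the blood and maternal markers. The 10 hypoblast markers summed to 5113 CPM in Hypoblast_E9 and to 982 CPM in Epiblast_E9, where APOA1 alone had 681 CPM. The source of the APOA1 counts in epiblast cells was not tested. The 7 measured epiblast markers summed to 481 CPM in Hypoblast_E9 and to 1336 CPM in Epiblast_E9; the E7, E8 and E10 hypoblast libraries had 335 to 598, 241 to 338 and 292 to 399 CPM. Most of the sum in E9 hypoblast came from DNMT3B, a DNA methyltransferase gene, at 282 CPM, and POU5F1, a pluripotency factor gene, at 113 CPM. SOX2, at 1.03 CPM, and NANOG, at 0.306 CPM, had 162 and 25.1 CPM in Epiblast_E9. With every cell thinned to 50000 counts, SOX2 was detected in 1.75% of the E9 hypoblast cells and in all 7 epiblast cells, and POU5F1 in 98.2% and in all 7. Unthinned median depths were 445531 and 682629 counts.

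The 8 trophectoderm markers summed to 53.8 CPM, inside the range of 35.7 to 182 CPM of the other hypoblast libraries. Of the 8 mesoderm markers, TBXT was at 0 counts, which allows up to 0.115 CPM, and the sum was 8.27 CPM. The 4 definitive endoderm markers CXCR4, GSC, CER1 and TFF3 summed to 2.34 CPM. The 6 measured blood and maternal markers summed to 301 CPM, of which LYZ, a lysozyme gene, and PECAM1, an adhesion receptor gene, made up 75.6 and 206 CPM. PTPRC, CD3E and CD14 were each under 1 CPM. HBB, a haemoglobin gene, was at 0 in the median cell and at 2144 CPM in the highest, and this cell's part in other values was not tested.

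**Figure D2:**
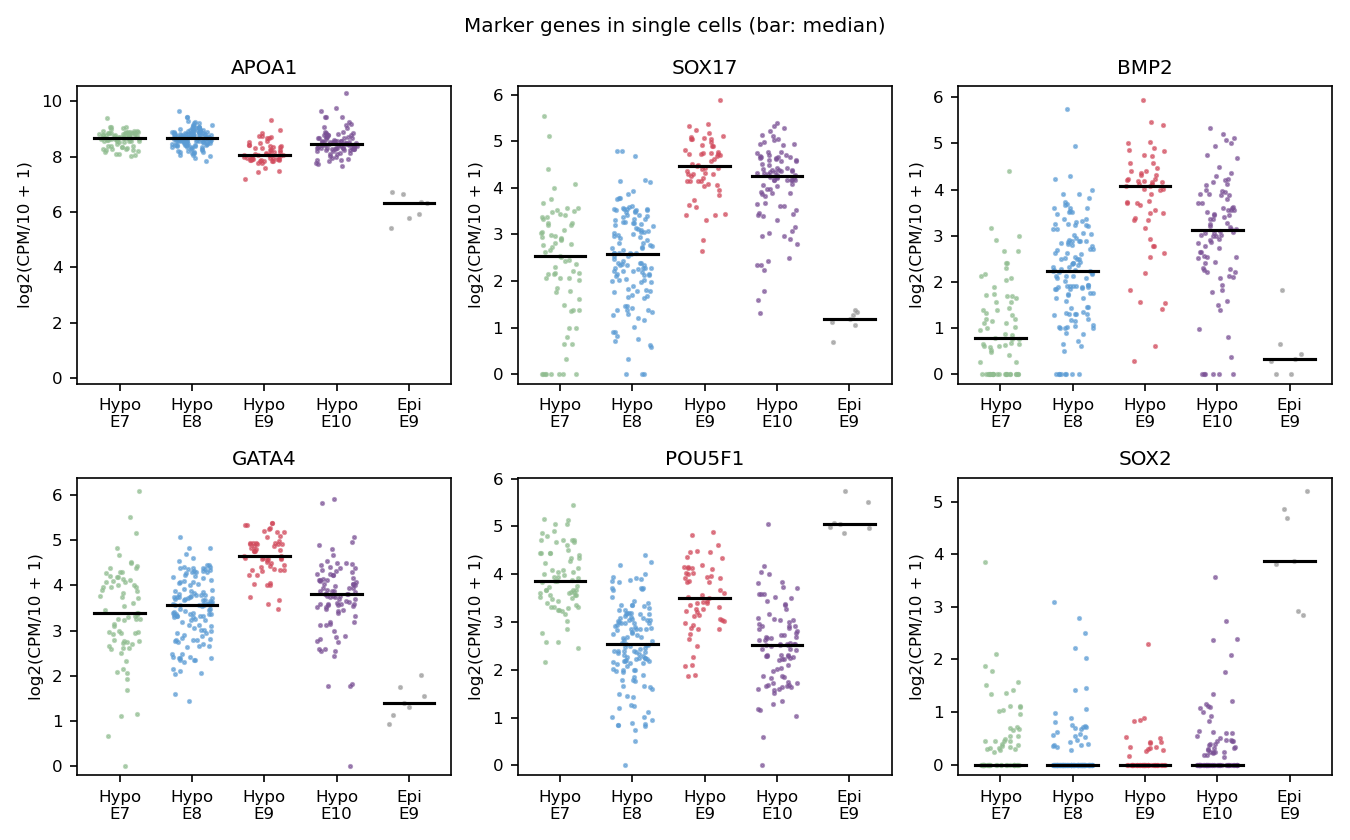
Level of 6 genes as log2(CPM/10 + 1) in single hypoblast cells of E7, E8, E9 and E10 and in the 7 Epiblast_E9 cells, with medians as bars. APOA1 is high on every hypoblast day, SOX17, BMP2 and GATA4 are at their highest medians at E9, and SOX2 has a median of 0 on every hypoblast day.

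Comparisons between groups used log2 ratios of pooled CPM with 1 CPM added to both sides. A gene was counted as higher or lower when it had at least 50 CPM in the higher group, differed at least 2-fold, and lay beyond every library of the other group. Against Hypoblast_E8, 891 of 5158 genes were higher (17.3%) and 108 were lower (2.09%), around a median log2 ratio of 0.21. With all genes centred on a median of 0 the split was 603 higher and 169 lower. Against Hypoblast_E10, 178 of 5327 genes were higher (3.34%) and 104 lower (1.95%), with a median of 0.02. Without E10 library P16 the lower genes numbered 157. Against Hypoblast_E7, 1059 of 5217 genes were higher (20.3%) and 183 lower (3.51%), with a median of 0.16; after centring these were 864 and 279. Of the 891 genes higher than E8, 694 met the same criteria in the EIF1AY-high and the EIF1AY-low cells alike. For the 108 lower genes this number was 74. The list counts that follow can be read against these shares.

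Against E7, E8 and E10, the higher genes were longer and the lower genes shorter than the genes tested. The median gene span in Sscrofa11.1 was 45.6 kb for genes higher than E8, 9.97 kb for genes lower than E8 and 24.53 kb for all genes tested. Against E10 the medians were 35.6 kb for higher genes, 10.41 kb for lower genes and 24.88 kb for all. Against E7 they were 41.01 kb for higher genes, 18.69 kb for lower genes and 24.85 kb for all. Against Epiblast_E9 of the same library they were 45.13 kb for higher genes, 28.54 kb for lower genes and 25.78 kb for all, so the lower genes were not shorter there. The 66 ribosomal protein genes had a median log2 ratio of -0.39 over E8, -0.21 over E10 and -0.33 over E7. The part of these shifts in the gene lists below was not tested.

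Endoderm transcription factors stood higher in E9 than in E8 hypoblast. Of 16 genes on the list, all measured, 8 reached 50 CPM against E8; 6 of these were higher and 1 lower, with a median log2 ratio of 1.17 beside 0.21 for all genes. Against E10, 7 genes reached the minimum and none met both criteria; 6 lay above every E10 library at any fold, with a median of 0.22, beside 37.8% of all 5327 genes. Against E7, GATA4, SOX17 and HNF4A were higher among 7, and the median was 0.79. Against E8, 2 of the 8 genes reached the minimum through E9 alone and 1 through E8 alone, so the counts describe the genes that passed and not the whole list.

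GATA4 had 131 and 107 CPM in the E7 libraries, 140, 127 and 99.8 CPM in the E8 libraries, 252 CPM in E9 (246 to 258), and 137, 152 and 143 CPM in the E10 libraries. The E9 value lay above all 8 others, which overlapped among themselves. SOX17 took another course, with 56.1 and 68.0 CPM at E7, 69.2, 65.0 and 51.3 CPM at E8, 217 CPM at E9, and 171, 210 and 163 CPM at E10. Here E9 and E10 were close, at a log2 ratio of 0.22, and both stood apart from the earlier days.

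GATA6, whose product acts early in primitive endoderm of the mouse, had 182 and 187 CPM at E7, 122, 80.8 and 60.7 CPM at E8, 240 CPM at E9 and 162, 182 and 160 CPM at E10, so that E8 was the lowest day. HNF4A, a regulator of lipid and liver genes in endoderm, reached 142 CPM at E9, against 40.5 to 70.6 CPM in the E8 libraries. FOXA2, a forkhead factor gene of endoderm, had 54.6 CPM, between the 33.2 and 76.8 CPM of the E10 libraries. HHEX, which marks anterior endoderm in the mouse, was the lower gene, with 14.4 CPM in E9 against 54.1, 53.8 and 87.7 CPM in the E8 libraries. SOX7, FOXA1, FOXA3 and CEBPA were all under 3 CPM in E9.

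**Figure D3:**
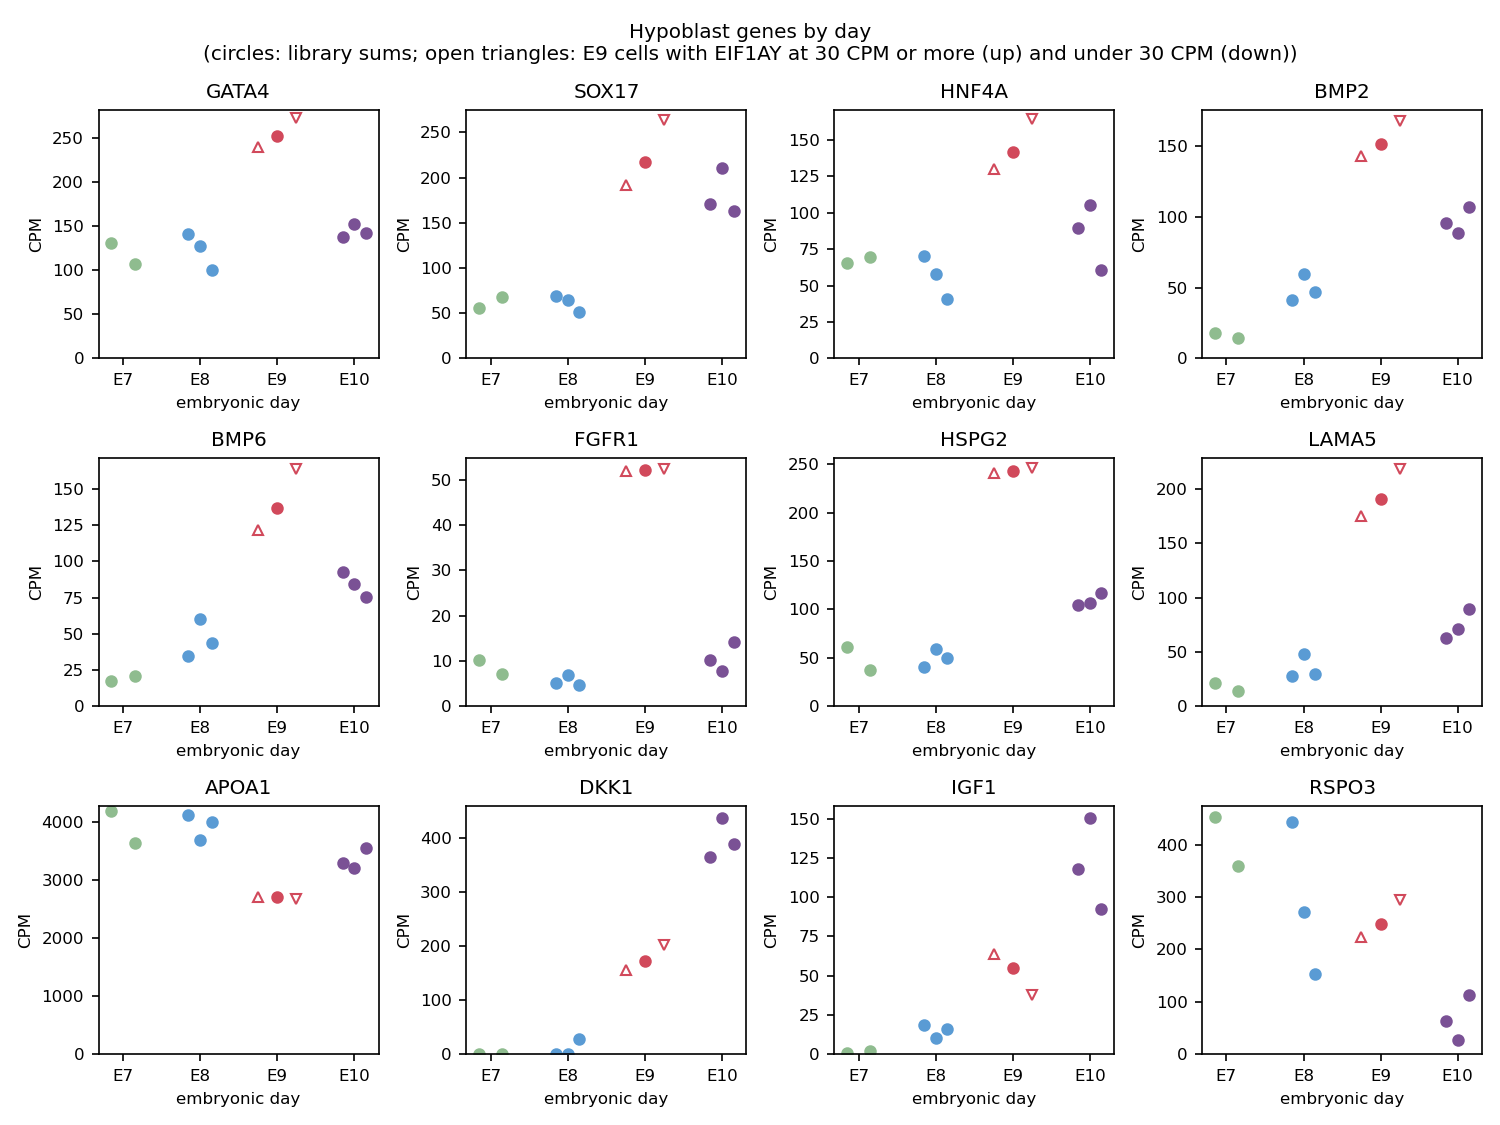
CPM of 12 genes in the hypoblast libraries of E7, E8, E9 and E10 (filled circles, 1 per library) and in the EIF1AY-high (open triangles up) and EIF1AY-low (open triangles down) cells of E9. GATA4, HNF4A, BMP2, BMP6, FGFR1, HSPG2 and LAMA5 peak at E9, DKK1 and IGF1 lie between E8 and E10, and APOA1 is lower at E9 than in any other library.

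Several genes of the BMP pathway were higher than at E8. BMP ligands bind serine-threonine kinase receptors, receptor SMADs carry the signal, and SMAD6, SMAD7 and the ID genes are known targets. Of 19 measured genes, 7 reached 50 CPM against E8, 5 of these were higher and none lower, with a median log2 ratio of 1.46. Of these 7 genes, 3 reached the minimum through E9 alone. Against E7, 6 of 7 were higher, with a median of 2.79, but 5 of the 7 reached the minimum through E9 alone. Such genes could hardly fail to be higher, so these counts and medians describe the genes that passed and say nothing of the list as a whole. Against E10, none of 8 was higher, and ID3 was lower.

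Among the ligands, BMP2 (chromosome 17, 15750487 to 15762982, Sscrofa11.1) had 18.2 and 14.4 CPM at E7, 41.4, 59.4 and 46.6 CPM at E8, 152 CPM at E9 (147 to 157) and 96.0, 88.6 and 107 CPM at E10. BMP6, a related ligand gene, had 17.5 and 20.7 CPM at E7, 34.4, 60.5 and 43.8 CPM at E8, 137 CPM at E9 and 93.0, 84.5 and 75.6 CPM at E10. For both, the E9 level lay above every other hypoblast library, in the EIF1AY-high as in the EIF1AY-low cells. BMP7 reached 101 CPM at E9, above the 25.1 to 34.8 CPM of E8 and inside the 68.1 to 109 CPM of E10. BMP4, another ligand gene, had 15.5 CPM in E9.

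Receptor genes were low, with BMPR1A at 22.6, BMPR2 at 26.4 and ACVR1 at 30.5 CPM. The inhibitory SMAD gene SMAD6 had 117 CPM in E9 against 20.8, 20.5 and 9.59 CPM at E8, a log2 ratio of 2.67, and 48.9 to 66.4 CPM at E10. The targets ID1 and ID3 went on to higher values at E10: ID1 had 58.9 and 90.1 CPM at E7, 87.2 to 93.5 CPM at E8, 247 CPM at E9 and 306 to 396 CPM at E10. ID3 had 3.31 and 4.61 CPM at E7, 15.1 to 44.6 CPM at E8, 54.2 CPM at E9 and 149 to 227 CPM at E10. So BMP2 and BMP6 were at their highest at E9, and the targets were divided, with SMAD6 highest at E9 and ID1 and ID3 at E10. In the authors' means of log2(CPM/10 + 1), ID2 had 5.22 at E9 and 5.86 at E10. NOG, the gene of the antagonist noggin, had 20.4 CPM.

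NODAL itself, a TGF-beta family ligand gene, belonged to the epiblast: it had 9.65 CPM in Hypoblast_E9 and 275 CPM in Epiblast_E9. Of 15 measured genes of its pathway, 4 reached 50 CPM against E8, 3 of them through E9 alone. The receptor gene ACVR1B and the convertase gene FURIN were higher, but both were among these 3 and could hardly fail to be higher. ACVR1B had 57.5 CPM in E9 and 12.1 to 19 CPM in the E8 libraries, and FURIN 85.7 and 35.8 to 40.9 CPM. FST, which encodes the activin inhibitor follistatin, was high on all days, at 697 CPM in E9 and 517 to 792 CPM in the other hypoblast libraries. Of the 13 measured genes on a list of anterior visceral endoderm signals and factors known from the mouse, 2 reached 50 CPM against E8, FST and the WNT inhibitor gene DKK1. DKK1 was higher, and it reached the minimum through E9 alone. Others of the list were at or near 0, with CER1 at 0.459, LEFTY2 at 0.727, LHX1 at 0.727 and GSC at 0.153 CPM. OTX2, a homeobox gene of the same region, had 3.52 CPM in E9 against 232 and 295 CPM in the E7 libraries.

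DKK1, which encodes a secreted WNT inhibitor, had the largest log2 ratio over E8 of all genes named by size. It lies on chromosome 14 (97487854 to 97490118, Sscrofa11.1). It had 0.659 and 0 CPM in the E7 libraries, 0.173, 0.532 and 28.4 CPM in the E8 libraries, 173 CPM in E9 (168 to 178), and 364, 437 and 389 CPM in the E10 libraries. E9 lay above every E7 and E8 library and below every E10 library, and P5 held nearly all of the E8 counts. The log2 ratio was 4.26 over E8 and -1.22 over E10, and 4.12 and 4.49 over E8 in the EIF1AY-high and EIF1AY-low cells.

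RSPO3, whose product enhances WNT signalling, ran the other way. It had 452 and 359 CPM at E7, 442, 271 and 153 CPM at E8, 249 CPM at E9 and 64.1, 27.7 and 113 CPM at E10. The E9 value was inside the range of the E8 libraries and above every E10 library. WNT11, a ligand gene, had 68.8 CPM in E9 against 21.1, 36.4 and 15.6 CPM at E8 and 37.0, 23.2 and 58.8 CPM at E10. AXIN2, a feedback target of WNT, stayed under the minimum at 38.2 CPM, while its E8 and E10 libraries had 7.07 to 14.9 CPM. Of 21 measured genes on the WNT list, 4 reached 50 CPM against E8 with 2 higher, and these 2 reached it through E9 alone. Against E10, 5 reached it with 1 higher and 1 lower, and 1 of the 5 did so through E9 alone and 1 through E10 alone. SP5, NKD1 and LEF1, further targets or effectors, were each under 3 CPM.

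IGF1, a growth factor gene, followed the order of DKK1, with 0.741 and 1.92 CPM at E7, 18.5, 10.1 and 15.7 CPM at E8, 54.6 CPM at E9 and 118, 151 and 92.7 CPM at E10. IHH, a hedgehog ligand gene of visceral endoderm in the mouse, had 113 CPM at E9 against 6.58, 18.4 and 8.17 CPM at E8, and 55.4 to 66.4 CPM at E10. In both, E9 stood apart from all E8 libraries.

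Receptor genes for growth factors were higher in part. Of 22 genes on the FGF and PDGF list, 8 reached 50 CPM against E8, of which FGFR1, FGFR3 and PDGFRA were higher and EGR1 lower. Of these 8 genes, 3 reached the minimum through E9 alone and 1 through E8 alone. Against E10, FGFR1 and KIT were higher and EGR1 lower among 8, of which 4 reached the minimum through E9 alone and 1 through E10 alone. FGFR1 and KIT passed through E9 alone and EGR1 through E10 alone, so the counts describe the genes that passed and not the list. PDGFRA, a classical marker of primitive endoderm, had 113 and 150 CPM at E7, 242, 126 and 114 CPM at E8, 300.0 CPM at E9 and 162, 209 and 171 CPM at E10. FGFR3 had 86.0 CPM in E9, against 17.8 to 26.6 CPM in E8, and FGFR4 had 96.7 CPM, against 49.4 to 57.3 CPM. FGFR2 was at 1.53 CPM.

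FGFR1 (chromosome 15, 48053895 to 48106634, Sscrofa11.1) stood out most among the receptors. It had 52.1 CPM in E9 (49.3 to 54.9) and between 4.68 and 14.1 CPM in all 8 other hypoblast libraries, with log2 ratios of 2.43, 2.93 and 2.23 over E7, E8 and E10. The EIF1AY-high cells had 51.9 CPM and the EIF1AY-low cells 52.4 CPM. Among single cells the 25th and 75th percentiles were 7.59 and 79.3 CPM. In Epiblast_E9 of the same library FGFR1 had 25.1 CPM, which lay between the 1.71 to 10.4 CPM of the E7 and E8 epiblast libraries and the 30.9 and 36.2 CPM of the E10 epiblast libraries.

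KIT, the receptor gene for stem cell factor, had 138 and 219 CPM at E7, 103, 114 and 80.8 CPM at E8, 83.8 CPM at E9 and 33.1, 27.1 and 38.9 CPM at E10. It was higher than at E10 and lower than at E7. Feedback and target genes of FGF signalling mostly had low levels at E9: SPRY1 had 10.5 CPM against 113 and 156 CPM at E7, and SPRY4 had 2.37, ETV4 4.82 and ETV5 7.58 CPM. This was not particular to E9 for ETV4 and ETV5. In the authors' means of log2(CPM/10 + 1), ETV4 had 0.49 at E9 and 0.30, 0.15 and 0.37 at E7, E8 and E10. ETV5 had 0.48 beside 0.30, 0.66 and 0.37, while SPRY4 was lowest at E9, with 0.19 beside 1.14, 0.56 and 0.31. DUSP6, a phosphatase gene of the same feedback, had 78.4 CPM, inside the 52.2 to 161 CPM of E8 and above the 32.7 and 30.1 CPM of E7. FGF4, FGF5 and FGF10 were at 0.0383 CPM or less, and VEGFA had 3.90 CPM.

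Basement membrane genes were a further group with high levels at E9. Of 16 measured genes, 13 reached 50 CPM in each comparison. LAMA5 and HSPG2 were higher than at both E8 and E10, none was lower, and 12 of the 13 lay above every library of E8 and likewise of E10 at any fold, beside 52.2% and 37.8% of all genes. The median log2 ratio was 0.51 over E8, 0.45 over E10 and 1.64 over E7, where 11 of the 13 were higher. Through E9 alone, 1 of the 13 reached the minimum against E8 and 3 against E7. NID1, at 0.20 over E8, was below the median of all genes.

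HSPG2, which encodes perlecan, had 61.3 and 37.3 CPM at E7, 40.8, 59.2 and 49.5 CPM at E8, 243 CPM at E9 and 104, 106 and 118 CPM at E10. LAMA5, a laminin alpha chain gene, had 21.6 and 14 CPM at E7, 28, 48.0 and 29.4 CPM at E8, 190 CPM at E9 and 63.1, 71.3 and 89.2 CPM at E10. Both were far outside the other days, in the EIF1AY-high as in the EIF1AY-low cells. Both also had their highest epiblast value in P17, with 32.8 CPM for HSPG2 against 3.72 to 26.3 CPM and 63.9 CPM for LAMA5 against 9.76 to 55.4 CPM in the other epiblast libraries.

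Other laminin and collagen genes differed less from E8 and E10. LAMA1, the alpha chain gene of embryonic laminin, had 502 CPM in E9, against 299 to 383 CPM at E8 and 321 to 414 CPM at E10. COL4A1, a type IV collagen gene, had 599 CPM against 467 to 490 CPM and 462 to 541 CPM. SPARC and NID2, genes of secreted matrix proteins, were almost absent at E7, with 15 and 8.21 CPM for SPARC and 10.5 and 4.59 CPM for NID2, and had 315 and 338 CPM at E9. SERPINH1, a collagen chaperone gene, was the member below all E8 libraries, at 465 CPM against 546, 714 and 774 CPM.

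**Figure D4:**
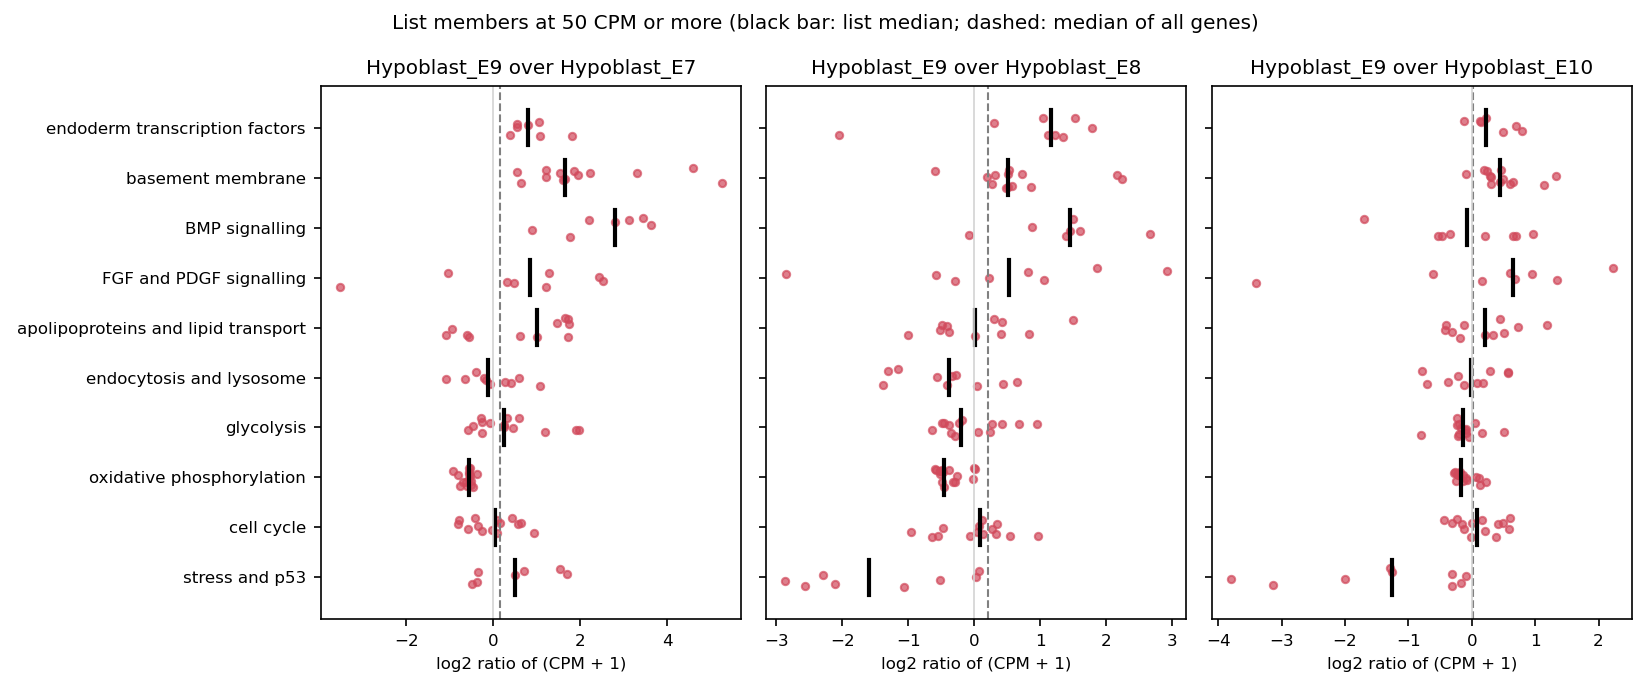
Log2 ratios of Hypoblast_E9 over Hypoblast_E7, Hypoblast_E8 and Hypoblast_E10 for members of 10 gene lists with at least 50 CPM, with list medians as black bars and the median of all genes as a dashed line. Against E8 the medians reach from -1.59 for the stress list to 1.46 for the BMP list; against E10 the stress list lies lowest at -1.26.

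Lipid transport genes went both ways between E8 and E9. Of 17 measured genes on the list, 11 reached 50 CPM; against E8, LRP2 was higher and APOC3 lower with a median of 0.01, and 5 of the 11 lay above and 5 below every E8 library at any fold, beside 52.2% and 26.2% of all genes, and against E10, APOC3 alone was higher with a median of 0.21. APOA1 (chromosome 9, 44216481 to 44218360, Sscrofa11.1) had 4194 and 3634 CPM at E7, 4125, 3689 and 4001 CPM at E8, 2699 CPM at E9 and 3294, 3206 and 3548 CPM at E10. Every other hypoblast library lay above E9, by a log2 ratio of -0.31 to -0.55 for the pooled days. Its neighbour APOC3 (chromosome 9, 44211171 to 44213538), which encodes an inhibitor of lipoprotein lipase, varied more. It had 624 and 1087 CPM at E7, 1347, 752 and 780 CPM at E8, 427 CPM at E9 and 285, 106 and 226 CPM at E10. APOA4, next to them at 44201587 to 44204072, had 5.66 CPM.

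LRP2, which encodes the endocytic receptor megalin, had 182 CPM at E9, against 64.7, 67.1 and 56.7 CPM at E8 and 144, 110 and 137 CPM at E10. APOE, a lipoprotein gene, had 1065 CPM in E9, within the 916 to 1203 CPM of E8. MTTP, needed to load lipid on APOB, had 101 CPM and exceeded every other hypoblast library, though APOB itself had 3.52 CPM. FABP3, a fatty acid binding protein gene, had 1088 CPM against 2465 and 2128 CPM at E7. Genes for serum proteins of the later yolk sac were nearly absent: none of 14 reached 50 CPM, and TTR, AFP and ALB had 0.344, 0.919 and 0.306 CPM.

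Endocytosis and lysosome genes included 3 that were lower than at E8 among 10 at the minimum and 14 measured. Of the 10, 1 reached the minimum through E8 alone. LGMN, GLA and PSAP, which encode lysosomal proteins, had 47.9, 69.5 and 94.6 CPM in E9. In the E8 libraries P3, P4 and P5, GLA had 86.3, 206 and 193 CPM and PSAP 97.6, 231 and 242 CPM, so that P3 lay close to E9.

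Genes of the stress and p53 list were the main group that was lower at E9 than at E8 and E10. These are genes such as FOS, a transcription factor gene switched on within minutes of many stimuli, and DDIT3 and ATF3 of the integrated stress response. Of 10 measured genes, 8 reached 50 CPM against E8, 2 of them through E8 alone, with 4 lower and none higher, at a median of -1.59. Against E10, 5 of 9 were lower and none higher, at a median of -1.26, and 3 of the 9 reached the minimum through E10 alone. Against E7, 2 of 7 (JUN and ATF3) were higher, and 2 of the 7 reached the minimum through E9 alone.

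FOS had 38.5 and 65.7 CPM at E7, 181, 219 and 69.1 CPM at E8, 38.9 CPM at E9 and 219, 240 and 599 CPM at E10. Within E9 it had 51.4 CPM in the EIF1AY-high and 15.9 CPM in the EIF1AY-low cells, both under every E8 and E10 library. DDIT3 had 78.1 and 94.2 CPM at E7, 88.6, 501 and 566 CPM at E8, 60.7 CPM at E9 and 173, 160 and 118 CPM at E10. ATF3 had 21.7 and 21.6 CPM at E7, 35.3, 458 and 359 CPM at E8, 72.7 CPM at E9 and 178, 162 and 194 CPM at E10. Library P3 of E8 was thus far from P4 and P5, and ATF3 in E9 lay above P3.

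The same split among the E8 libraries was found in several genes named for the largest differences. MAFF, a small MAF transcription factor gene, had 0.115 CPM in E9 (3 counts, 0.0237 to 0.336), against 3.11, 150 and 83.7 CPM in P3, P4 and P5. NUPR1, a stress regulator gene, had 0.0766 CPM (2 counts, 0.00927 to 0.277) against 0.865, 36.9 and 192 CPM. CHAC1 and TRIB3, targets of the integrated stress response, had 0.306 and 3.87 CPM in E9 and 0 and 0.173 CPM in P3, below E9, but 117 to 214 CPM in P4 and P5. BAG3, a co-chaperone gene, had 45.3 CPM against 87.0, 594 and 441 CPM. Without P3 the number of genes lower than E8 was 167 instead of 108, so the choice of the E8 library sets much of this count.

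Against E10, immediate-early genes were again among the lowest, although EGR1, KLF4 and SNAI1 are not on the stress and p53 list. EGR1 had 9.65 CPM in E9 against 97.2, 106 and 129 CPM, KLF4 had 3.33 CPM against 72.3, 80.8 and 75.5 CPM, and GADD45B had 6.85 CPM against 98.9, 107 and 118 CPM. HAS2, which encodes hyaluronan synthase 2, had 1.95 CPM against 68.5, 111 and 11.7 CPM. SNAI1, a repressor gene of epithelial genes, had 18.3 CPM against 120, 92.6 and 114 CPM. CRYAB, a small heat shock protein gene, had 12 CPM against 222, 243 and 95.9 CPM. In FOS, EGR1 and ATF3, epiblast cells of P17 were low as well. FOS had 47.6, EGR1 8.60 and ATF3 2.56 CPM in Epiblast_E9. The 6 other epiblast libraries had 53.9 to 755, 26.1 to 256 and 8.12 to 119 CPM. These 3 genes were thus below every other epiblast library in the epiblast cells of P17, as FOS and EGR1 were below every E8 and E10 hypoblast library in its hypoblast cells. Not all such genes were alike in both lineages of P17. Log2 ratios of hypoblast over epiblast were -0.29 to 0.15 for FOS, EGR1, KLF4, GADD45B and SNAI1. They were 4.37 for ATF3 and 2.59 for CRYAB, but -4.17 for HAS2, -3.47 for DNAJB4, -2.77 for CHAC1 and -2.08 for NR4A1.

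**Figure D5:**
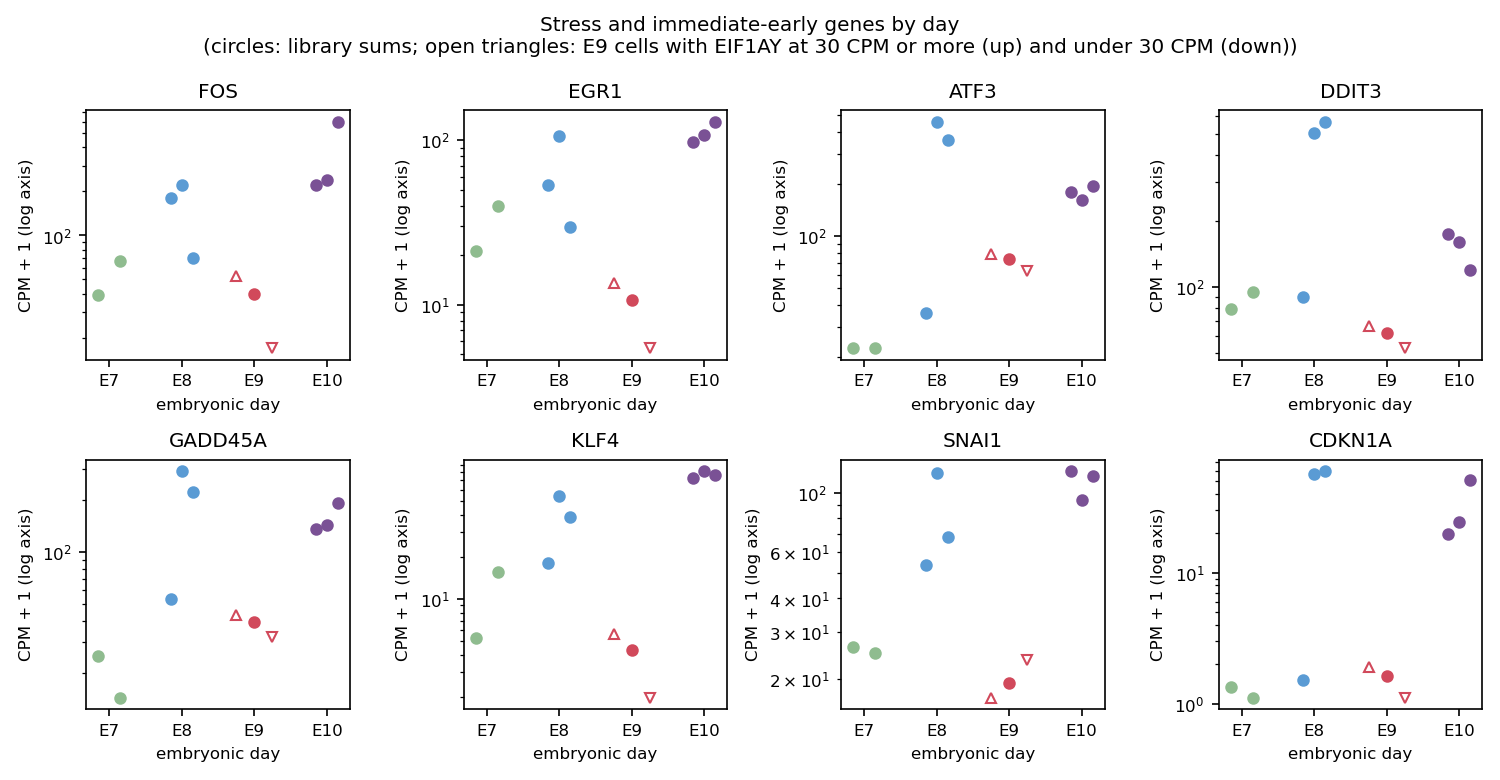
CPM + 1 on a log axis of 8 stress and immediate-early genes in hypoblast libraries of E7, E8, E9 and E10 (filled circles) and in EIF1AY-high (triangles up) and EIF1AY-low (triangles down) cells of E9. At E9 all 8 genes lie below the 3 E10 libraries, and ATF3 and CDKN1A lie above the lowest E8 library.

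Genes of energy metabolism and the cell cycle did not pass the criteria against E8 or E10. None of 14 glycolysis genes and none of 16 oxidative phosphorylation genes at the minimum was higher or lower. The oxidative phosphorylation genes nevertheless leaned one way: 13 of the 16 lay below every E8 library, at a median of -0.46, 11 below every E10 library, at -0.16, and all 16 below both E7 libraries, at -0.55. Of all genes tested, 26.2%, 31.4% and 37.9% lay below every library of E8, E10 and E7. CYCS, the cytochrome c gene, had 699 CPM in E9 against 1116, 1030 and 1087 CPM at E8. Among glycolysis genes, LDHA, a lactate dehydrogenase gene, had 180 CPM at E9 against 43.1 and 53.4 CPM at E7, while E8 and E10 had 187 to 251 and 242 to 367 CPM. Of 14 cell cycle genes none was beyond the criteria against any hypoblast day, with medians of 0.03 to 0.10. CDKN1A, the p21 gene, had 0.612 CPM in E9, against 0.519, 55.6 and 58.7 CPM in the E8 libraries and 18.8 to 49.6 CPM at E10.

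Other lists held few genes. Junction and integrin genes had none of 11 beyond the criteria against E8 or E10; CDH2, the N-cadherin gene, had 274 CPM and CLDN6, a claudin gene, 592 CPM. Of 14 retinoid genes 1 reached the minimum against E8 and E10, RDH10 of retinal synthesis, at 194 CPM against 124 to 148 and 125 to 151 CPM. CYP26A1, which encodes the enzyme that breaks down retinoic acid, had 44.5 CPM at E9 against 130 and 78.0 CPM at E7, and 58.8 and 18.5 CPM in EIF1AY-high and EIF1AY-low cells. IL6ST, the shared receptor gene of LIF and IL6, had 69.8 CPM at E9 against 161 and 190 CPM at E7. GRB10, an imprinted adaptor gene in the mouse, had 90.3 CPM against 13.5, 22.6 and 34.5 CPM at E8.

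Other genes far above E8 came from several classes, and most were nearer to E10. EMILIN2 and SDC3, genes of a matrix glycoprotein and a cell surface proteoglycan, had 97.7 and 83.6 CPM in E9, against 8.39 to 12 CPM and 4.67 to 10.6 CPM in the E8 libraries and 43.3 to 64.2 CPM and 35.4 to 50.8 CPM in the E10 libraries. FZD2, a WNT receptor gene, had 69.7 CPM in E9 against 6.01 to 9.04 CPM at E8 and 20.9 to 35.9 CPM at E10. PRKDC, which encodes the catalytic subunit of a DNA repair kinase, had 59.7 CPM against 2.98 to 12.3 CPM and 15.9 to 25.7 CPM. In all 4 genes E9 lay above both neighbouring days, and in EMILIN2 and FZD2 the EIF1AY-high cells had the higher level, with 107 and 75.9 CPM against 80.1 and 58.5 CPM in the EIF1AY-low cells. PRKX, a kinase gene whose human counterpart has a Y-linked relative, had 71.7 CPM against 3.11 to 7.98 CPM at E8.

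Genes far above E10 were partly genes that had been high since E7. SLC27A4, a fatty acid transporter gene, had 189 CPM in both E7 libraries, 110, 180 and 141 CPM at E8, 191 CPM at E9 and 70.9, 43.3 and 51.1 CPM at E10. ADGRG6, an adhesion receptor gene, had 82.9 and 84.2 CPM at E7, 72.5, 51.3 and 42.3 CPM at E8, 86.4 CPM at E9 and 18.9, 23.5 and 30.3 CPM at E10. Together with RSPO3 and KIT, these genes had their low day at E10. USP36, a deubiquitinase gene, had 56.1 CPM at E9 against 11.3 to 18.2 CPM at E10. OSR2, a zinc finger factor gene, was on the other side, at 9.57 CPM against 95.5, 100.4 and 60.7 CPM at E10.

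A group of genes that were high in E9 hypoblast was close to absent at E7. HAPLN1 had 246 CPM in E9 against 5.93 and 0.107 CPM in the E7 libraries. EMP1, a membrane protein gene, and ME1, the cytosolic malic enzyme gene, had 349 and 301 CPM against 4.05 to 8.40 CPM and 6.51 to 7.25 CPM. PXDN and EGFLAM, genes of matrix proteins, had 323 and 167 CPM against 2.13 to 14.2 CPM and 1.39 to 6.26 CPM. SLC1A1, a glutamate transporter gene, had 244 CPM, against 9.72 and 1.28 CPM at E7, 76.5 to 130 CPM at E8 and 241 to 278 CPM at E10. For these 6 genes every E8 library lay above both E7 libraries.

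In the other direction, several E7 genes were close to 0 by E9. PGM5, of the phosphoglucomutase family, had 0.0766 CPM in E9 (2 counts, 0.00927 to 0.277), against 274 and 239 CPM in the E7 libraries. TMEM86A, a membrane protein gene, had 4.21 CPM against 264 and 285 CPM. ASS1 of arginine synthesis had 3.90 CPM against 73.5 and 101 CPM, and PNP of purine breakdown had 36.7 CPM against 440 and 606 CPM. The growth factor binding protein genes IGFBP2 and IGFBP5 had 17.8 and 7.77 CPM against 52.6 to 74.4 CPM and 46.5 to 59.0 CPM. C1QA and SYCP1, a complement gene and a gene of the meiotic chromosome axis, each had 1 count in E9, against 53.2 and 82.8 CPM for C1QA and 46.4 and 101 CPM for SYCP1.

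A set of 133 of the 4970 genes with at least 50 CPM at E9 (2.68%) stood at least 2-fold above the highest other hypoblast day and above every library. Of the 3435 genes with at least 50 CPM on all 3 other days, 4 lay at least 2-fold below each day and below every library, among them SPTY2D1 and GM2A. The minimum is stricter for this second count, so the counts are not comparable. FGFR1 led the coding genes, at 2.23 above the highest other day, followed by ISG12(A), an interferon-inducible gene, at 2.18. HDAC7, a histone deacetylase gene, had 81.8 CPM against 6.57 to 22.9 CPM in the other hypoblast libraries. TSC2, an inhibitor gene of the mTOR pathway, had 50.6 CPM against 8.35 to 18.1 CPM, and CAD, of pyrimidine synthesis, had 83.4 CPM against 17.6 to 30.8 CPM. SNORD99, a small nucleolar RNA gene inside a host gene, had 71.7 CPM against 1.89 to 22.8 CPM, but its reads cannot be told from those of the host.

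Part of this set was also at its highest in the epiblast cells of the same library. In Epiblast_E9, 65 of the 133 (48.9%) lay above every other epiblast library, beside 1114 of all 4970 genes (22.4%). TSC2 and CAD were among the 65, at log2 ratios of 1.04 and 0.92 over the highest other epiblast day; FGFR1 was not, at -0.39. The set had a median gene span of 35.7 kb beside 24.85 kb for all 4970 genes. ISG12(A) had 18.3 CPM in EIF1AY-high and 158 CPM in EIF1AY-low cells. The library and the day cannot be told apart for this set.

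The epiblast cells of P17 gave the comparison within a library. Against Epiblast_E9, 998 of 5883 genes were higher (17%) and 894 were lower (15.2%), with a median of -0.07. Epiblast_E9 comes from P17 only, so every gene that differed 2-fold also lay beyond its library. These shares therefore rest on a looser rule than those against the hypoblast days, which have several libraries each. All 7 endoderm transcription factor genes and all 13 basement membrane genes at the minimum were higher, with medians of 3.97 and 2.06, and 9 of 11 lipid transport genes. All 7, 3 of the 13 and 4 of the 11 reached the minimum through the hypoblast alone. Such genes could hardly fail to be higher, so these counts and medians describe the genes that passed and not the whole lists. The authors may have told the lineages apart by expression, and genes that served for this are not a finding. RSPO3 had 249 CPM in the hypoblast cells and 6.27 CPM in the epiblast cells, and ADAMTS9, a matrix protease gene, 186 and 3.72 CPM. DAB2, an endocytic adaptor gene known from visceral endoderm, had 236 and 7.90 CPM. On the other side were SOX2, CDH1, the E-cadherin gene, with 27.6 and 380 CPM, LIN28B, a regulator gene of let-7 miRNAs, with 1.68 and 171 CPM, and PFKP, a phosphofructokinase gene, with 3.33 and 71.3 CPM. Only 7 epiblast cells stand behind these values.

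Hypoblast and epiblast cells were also found together in 5 other libraries. Of the 998 genes higher than in epiblast, 185 were at least 2-fold higher in all 5, and of the 894 lower genes 177 were at least 2-fold lower in all 5. None was at least 2-fold the other way in all 5. The share of all 5883 tested genes that differed 2-fold in all 5 was not computed, so these counts have no background to be read against. SOX17 had log2 ratios of hypoblast over epiblast of 4.26 and 3.22 at E7, 2.91 and 0.92 at E8, 4.09 at E9 and 5.04 at E10. DKK1 differed by day: the ratios were 0.00 in both E7 libraries, -1.23 and 0.13 at E8, 3.81 at E9 and 3.85 at E10. ID3 was higher than in epiblast at E9 alone, by 1.68, with -1.94 and -1.57 at E7, -2.54 and -2.25 at E8 and -0.64 at E10. HHEX was lower at E9 alone, by -1.26, with 2.89 and 2.90 at E7, 0.65 and 0.44 at E8 and 0.57 at E10; ID3 and HHEX were chosen for mention after their values were seen.

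In the secreted signal genes BMP2, RSPO3 and DKK1, single cells of E9 varied more than in genes of like mean. The authors' deposited standard deviations on the log2(CPM/10 + 1) scale were 0.39 for APOA1 and 0.46 for GATA4, and 1.15 for BMP2, 1.09 for RSPO3 and 1.70 for DKK1. Genes of like mean had a median SD of 0.78 for BMP2, 0.56 for RSPO3 and 0.88 for DKK1. The gap for DKK1 was the largest among 4787 genes. BMP6 and FST varied less. BMP6 had an SD of 0.67 at a mean of 3.76, beside a mean of 3.75 for BMP2, and FST had 0.31 at 6.21. The SD depends on the mean, which was 8.15 for APOA1 and 4.65 for GATA4, so their SDs are not comparable with those of the signals. DKK1 was at 0, 94.0 and 522 CPM in the lowest, median and highest cell, with quartiles of 29.2 and 257 CPM. After thinning to 50000 counts, DKK1 was detected in 1.39% of E7, 25.2% of E8, 84.2% of E9 and 96.5% of E10 hypoblast cells, and in 57.1% of the 7 Epiblast_E9 cells, whose pooled level was 11.4 CPM. HAPLN1, a gene of a hyaluronan-linking matrix protein, had an SD of 1.36 beside 0.64 for genes of like mean, and the cell cycle genes TOP2A and CENPF had 1.20 and 1.21 beside 0.60 and 0.66.

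Some of the spread was shared between genes. Across the 57 thinned cells of this 1 library, RSPO3 went with HAPLN1 (Spearman's rho 0.57), with WNT11 (0.54) and with BMP2 (0.41). DKK1 had -0.26 with RSPO3, -0.31 with BMP2 and -0.42 with APOA1, but 0.33 with BMP6 and 0.02 with WNT11. In EIF1AY-high and EIF1AY-low cells the values for RSPO3 and HAPLN1 were 0.60 and 0.58, and for DKK1 and APOA1 -0.46 and -0.41. APOC3 and SQLE, a cholesterol synthesis gene, had -0.48 in all cells, but -0.39 and -0.17 in the sets. Cells share a library and differ in depth before thinning, so these values describe the cells and carry no test.

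Between the EIF1AY sets, 167 of 5355 genes with at least 50 CPM (3.12%) were at least 2-fold higher in the EIF1AY-high cells and 47 (0.878%) were lower, with a median log2 ratio of 0.09. HSPA6 and DUSP1, an inducible heat shock gene and a phosphatase gene of the immediate-early class, had 172 and 105 CPM in EIF1AY-high and 20 and 15 CPM in EIF1AY-low cells. TSPO, a mitochondrial transporter gene, had 2.31 and 52.4 CPM, and the interferon-induced gene IFITM3 2.55 and 52.4 CPM. For both, single cells at up to 676 and 629 CPM carried much of the sum in the EIF1AY-low cells. ATRX, an X-linked chromatin remodeller gene, had 97.1 and 250 CPM. Hypoblast genes differed less, with SOX17 at 191 and 264 CPM and BMP2 at 143 and 168 CPM. The sets differ in depth and mitochondrial share as well, and the part of each in these differences was not tested.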

How the data were processed

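A modified form of Smart-seq2 served to profile polyadenylated RNA of single pig cells. The deposited table holds raw counts per gene and cell. Per the submitters' processing notes, which give no role or order, UMI-tools, featureCounts 1.6.4 and STAR 2.7.1a were used with Sscrofa11.1. The authors also deposited, per group, the mean and standard deviation of log2(CPM/10 + 1) among its cells, CPM being a gene's counts per 1e6 counts of pig genes.

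The cell names give the library, not the group, so cells were assigned by least squares on the deposited log2 means. Each group's counts were pooled, in all and per library, and scaled to CPM without spike-ins. Ratios are log2 of (CPM + 1) over (CPM + 1), for genes that reach 50 CPM in the higher group. A gene counts as higher or lower at 2-fold and beyond every library of the other group, and this rule was checked on simulated counts. The simulated libraries differed by counting error only, so the check cannot show how often differences between libraries pass the rule. The planned count test needed at least 2 library sums in both groups and was not made.

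Named were, per comparison and direction, the 12 genes with the largest ratios, at least 50 CPM and 100 counts in the higher group, with a symbol and neither ribosomal nor mitochondrial, and members of 23 gene lists (331 genes, 309 measured). Genes of the peak set, of the spread among cells and of the EIF1AY sets were chosen after their values were seen. The members, lists and rules were chosen with earlier results of these data known. Symbols came from the reference annotation for 14800 identifiers and from the authors' table alone for 1043. Gene spans came from RefSeq on Sscrofa11.1. Python 3.11.15, numpy 2.4.6, pandas 2.3.3, scipy 1.17.1 and matplotlib 3.10.9 were used. The alternatives were other pseudocounts and minima, libraries left out, other cell filters and summaries, centring and the EIF1AY sets. Results for some genes are not reported here.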

Additional observations from a re-analysis of the deposited data

How the results depend on the processing

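Per gene, the alternatives were run for the 12 largest ratios of each comparison and direction and for the 10 hypoblast markers. No log2 ratio among these that met the criteria changed sign. Genes picked for large ratios in the same data could hardly do so, and the other list members named above were not tried. A minimum of 20 CPM gave 1857 higher and 167 lower genes against E8, 501 and 234 against E10, 2040 and 305 against E7, and 1710 and 1489 against Epiblast_E9. Centring gave 169 genes lower than E8 and 279 lower than E7. EIF1AY-low cells alone, with fewer counts, gave 227 genes lower than E8, 374 higher and 339 lower than E10, and 451 lower than E7. Centring and the EIF1AY sets were added after seeing the data. Against E10, a pseudocount of 10 CPM gave 96 higher genes, the mean of CPM over cells 358 and the authors' deposited means 302. Leaving out each library in turn gave 842 to 1011 higher and 95 to 167 lower genes against E8, 179 to 205 and 96 to 157 against E10, and 1055 to 1128 and 193 to 219 against E7. Among these, the 167 came without E8 library P3 and the 157 without E10 library P16. The causes of these shifts were not tested, apart from the larger number of genes that a lower minimum admits.

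No paired analysis was possible because Hypoblast_E9 has a single library. For the same reason the alternatives of the planned count test (edgeR and DESeq2 with other size factors, filters, dispersions, groups in the fit, sums of at least 10 cells or the library as a block) were not run. Genes under 50 CPM at this depth were described by level only.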
